A study of Homo sapiens with 38 samples.

Results

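The rPAL enrichment difference between HL60 and KG1a cells is the log2 enrichment of a feature in the pull-down of HL60 cells minus its log2 enrichment in the pull-down of KG1a cells. It was formed over the 4 cell groups of the study, HL60 rPAL (n = 3), HL60 total (n = 3), KG1a rPAL (n = 4) and KG1a total (n = 4), which hold 14 of the 38 libraries. Of the 90127 features of the count table, 58735 had a count in these libraries and 11632 passed the count filter and were tested. HL60 is a promyelocytic and KG1a a primitive, CD34-bearing human acute myeloid leukaemia line, both labelled wild type and grown in RPMI-1640 with fetal bovine serum and antibiotics. In rPAL, sialic acid is oxidised with periodate and the aldehyde formed is ligated to biotin, and RNA bearing sialic acid glycans is captured by it, while the total RNA of the same line is the input. No label tells whether the replicates came from cultures grown apart, and the p-values cover no more than the variation among these libraries, which may be technical.

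GlycoRNAs have been described as small non-coding RNAs, Y RNAs, small nuclear and nucleolar RNAs and tRNAs among them, that carry N-glycans capped by sialic acid and that can be found at the cell surface. Small nuclear RNAs form the core of the spliceosome, scaRNAs guide the modification of those small nuclear RNAs in Cajal bodies, and snoRNAs guide the modification of ribosomal RNA in the nucleolus. Mitochondrial tRNAs are cut from long transcripts of the mitochondrial genome and serve its own ribosomes. A positive difference means that a feature stood higher in the pull-down, relative to its input, in HL60 than in KG1a cells, and a negative one that it stood lower.

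SCARNA6 and the U8 RNA (SNORD118), which lies inside TMEM107, are shown because SCARNA6 and TMEM107 had some of the most negative differences, with the box C letters TGATGA and the last CTGA (box D) in capitals (GRCh38, GENCODE 29).
SCARNA6: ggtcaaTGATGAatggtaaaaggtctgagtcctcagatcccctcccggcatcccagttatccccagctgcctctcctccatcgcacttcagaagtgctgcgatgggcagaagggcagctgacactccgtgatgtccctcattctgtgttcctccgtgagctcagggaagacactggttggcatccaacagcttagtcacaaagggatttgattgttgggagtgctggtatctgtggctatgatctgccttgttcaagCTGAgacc
SNORD118: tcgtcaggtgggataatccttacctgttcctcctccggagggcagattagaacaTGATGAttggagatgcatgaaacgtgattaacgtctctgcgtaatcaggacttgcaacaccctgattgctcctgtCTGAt
SCARNA6 is encoded on chromosome 2 (233288676 to 233288940, plus strand) and SNORD118 on chromosome 17 (8173454 to 8173587, minus strand). The mitochondrial tRNAs for histidine (MT-TH) and asparagine (MT-TN) are shown with their anticodons in capitals.
MT-TH: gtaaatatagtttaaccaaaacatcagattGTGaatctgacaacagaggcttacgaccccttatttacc
MT-TN: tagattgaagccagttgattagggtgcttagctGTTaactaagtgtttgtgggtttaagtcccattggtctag
The Y RNA RNY1, which binds the Ro60 protein, is shown with capitals on the first 11 bases, which RNY3 and RNY4 share.
RNY1: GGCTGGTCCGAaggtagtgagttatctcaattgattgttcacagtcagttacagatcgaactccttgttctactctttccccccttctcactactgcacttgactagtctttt

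Libraries held 5929946 to 9652811 counts in HL60 rPAL, 14016683 to 14892937 in HL60 total, 10225549 to 15532758 in KG1a rPAL and 10611842 to 13799469 in KG1a total. Levels are given as CPM, the usual scaling of counts to the library total. The lines matched their labels by their markers: 6 promyelocytic markers, of which ELANE had no count, summed to 3.08 to 4.21 CPM in HL60 total against 0 to 0.164 CPM in KG1a total, and 7 primitive-cell markers to 1.21 to 1.85 CPM in HL60 total against 8.82 to 11.4 CPM in KG1a total. Markers of erythroid cells, B cells, hepatocytes and epithelium summed to at most 2.36 CPM in any library, and those of T cells to at most 2.20 CPM. Replicates agreed less after the pull-down, with Spearman correlations across features of 0.609 to 0.621 between HL60 rPAL libraries and 0.425 to 0.516 between KG1a rPAL libraries, against 0.814 to 0.880 between total libraries of 1 line. KG1a rPAL replicates 2 and 3 stood apart from replicates 1 and 4, with 16% and 19% of counts on miRNA precursor entries against 4.83% and 0.877%, so results are also given without them.

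The enrichment difference passed the test for 211 features, 1.81% of those tested, of which 74 were higher in HL60 (0.636%) and 137 lower (1.18%; edgeR quasi-likelihood test, Benjamini-Hochberg adjusted p under 0.05). Counting features that share reads once left 74 higher and 121 lower. The median difference over all features was -0.36 on the log2 scale, and -0.22 when no TMM scaling was applied, and single values are best read against it. In the same model 20.1% of features differed between rPAL and total RNA in HL60 cells and 19.7% in KG1a cells, while 15.3% differed between the lines in rPAL RNA and 4.45% in total RNA. Without KG1a rPAL replicates 2 and 3 the count was 659, of which 298 were higher, and 175 of the 211 were among them. When all 12 groups of the study were fitted together, the estimate of the spread, the filter and the scaling all changed, and 18423 features were tested. None was called, with 1975 features at an unadjusted p under 0.05 in edgeR. DESeq2 on the 4 groups called 705. With 1 library left out the count lay between 14, without HL60 total replicate 1, and 595, without KG1a rPAL replicate 4. The balance of directions also turned on single libraries, with 35 higher and 25 lower without HL60 rPAL replicate 2, and 2 higher and 12 lower without HL60 total replicate 1. Higher calls outnumbered lower ones without any 1 of the HL60 rPAL libraries and without KG1a total replicate 2. Of all 211 called features, 12 were called in each of the 14 fits that left out 1 library, and 51 in at least 7 of them. A set of 30 called features was chosen by the naming rule, from the panel or after values were seen. Of these, 7 were called in each of these 14 fits, and all 30 kept their direction. The 7 were RNU5B-1, TMEM107, SCARNA6, MT-TH, SNHG5, URS00023110DF and URS000038B599. No called member of the gene lists outside the 30 was called in each of these 14 fits.

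The fitted enrichments of the called features differed in sign pattern, which was counted without a test of each sign. Of the 74 higher features, 44 had a positive enrichment in HL60 and a negative one in KG1a, 23 were positive in both and 7 negative in both. Of the 137 lower features, 70 were negative in both lines, 60 negative in HL60 and positive in KG1a and 7 positive in both. Both enrichments passed the test with opposite signs for 5 of the 74 and for 6 of the 137, while the HL60 enrichment passed for 41 and for 116 and the KG1a enrichment for 55 in each set. The line difference itself passed the test in rPAL RNA and not in total RNA for 59 of the 74 and for 94 of the 137, and in total RNA and not in rPAL RNA for 6 and for 25. Of the called features 33 higher and 44 lower ones had 3 counts or fewer in a whole group, so that the size of their difference depends on the fit.

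**Figure D1:**
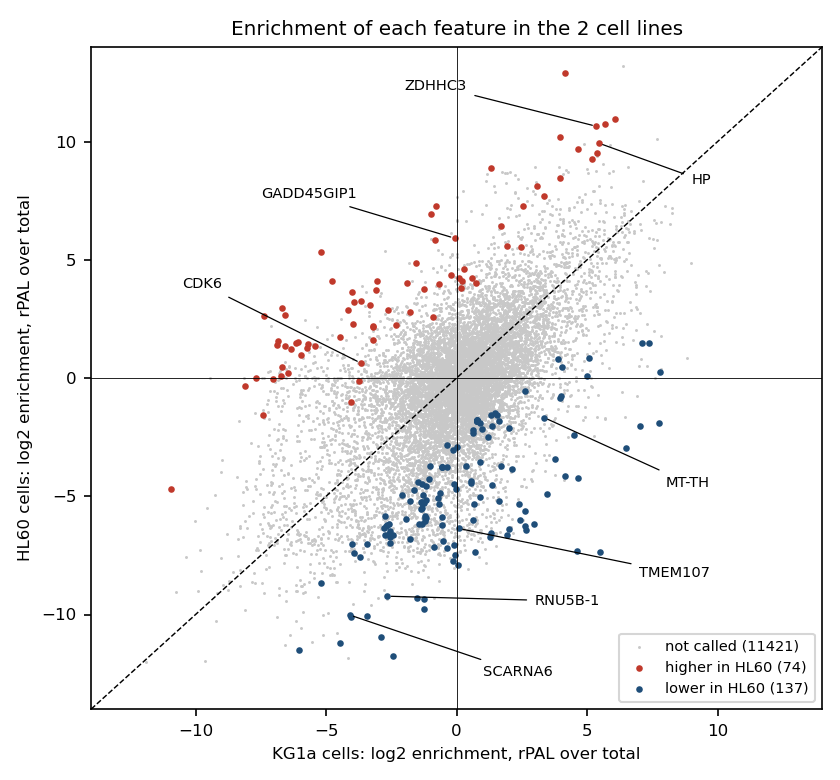
Log2 enrichment (rPAL over total RNA, edgeR with TMM scaling) in HL60 cells on the y axis and in KG1a cells on the x axis for each of the 11632 features, with the 74 higher in HL60 in red, the 137 lower in blue and the others in grey. The dashed line marks equal enrichment, and ZDHHC3 and HP lie above it with positive values in both lines, while SCARNA6 and RNU5B-1 lie below it with negative values in both.

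By RNA class, called lower features made up a larger share of small nuclear, ribosomal, mitochondrial transfer and miRNA precursor entries than of all features, and most of the higher ones were protein-coding, as were most of the features tested. Of 22 mitochondrial tRNA features 5 were lower and none higher, with a median difference of -1.93. Of 48 small nuclear RNA features tested 12 were lower and none was higher, with a median difference of -3.15, or -2.52 over the 34 with a count in every group. Of 253 miRNA precursor entries 25 were lower and 1 was higher (median -1.68), and of 380 mature miRNA entries 14 were lower and 2 higher (median -1.59). Of 46 ribosomal RNA entries 10 were lower and none higher (median -2.59), and these 10 form 1 group of entries that share reads. Of 486 snoRNA features 13 were lower and none higher (median -0.64). Of 494 tRNA entries 6 were higher and 5 lower, with a median of 0.01. Of 7645 protein-coding features 53 were higher and 23 lower, with a median of -0.22, and of 1476 lncRNA features 7 were higher and 13 lower. Over all features 1.81% were called, 0.636% higher and 1.18% lower. The called share was 25.0% for small nuclear RNA, 22.7% for mitochondrial tRNA, 21.7% for ribosomal RNA and 10.3% for miRNA precursors. It was 4.21% for mature miRNA. Nearer the share of all features lay snoRNA (2.67%), tRNA (2.23%), lncRNA (1.36%) and protein-coding features (0.994%).

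Class shares of the library totals gave a second view, which depends on the other RNAs in the total. Ribosomal RNA held 5.33%, 7.72% and 6.32% of counts in HL60 rPAL and 14.6%, 13.7% and 12.7% in HL60 total. It held 11.4%, 22.3%, 15.8% and 14.6% in KG1a rPAL, and between 7.99% and 13.3% in KG1a total. Every HL60 rPAL library lay below every library of the other three groups, and the KG1a rPAL and total libraries overlapped. The difference of enrichment was -1.73 on the log2 scale (exact permutation of the line labels within rPAL and within total libraries, two-sided, p = 0.00245, adjusted p = 0.0229 over 28 classes). This permutation exchanges the lines in both kinds of RNA, so its null is that line makes no difference in either. The snoRNA share was 0.769% ± 0.196 in HL60 rPAL and 3.89% ± 0.244 in HL60 total (SD, n = 3 each), against 1.19% ± 0.371 in KG1a rPAL and 2.07% ± 0.223 in KG1a total (SD, n = 4 each), a difference of -1.53 with the same exact permutation p. The misc_RNA class, which holds Y RNA and 7SL genes, gave -2.48 at p = 0.000816, the smallest this exact permutation allows, with at most 0.0166% of counts in any of these libraries.

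The other class shares did not pass the adjusted threshold. The scaRNA share was 0.00805% ± 0.00504 in HL60 rPAL and 0.216% ± 0.0552 in HL60 total (SD, n = 3 each), against 0.0105% ± 0.00515 in KG1a rPAL and 0.0142% ± 0.00469 in KG1a total (SD, n = 4 each), and its difference of -4.32 had an adjusted p of 0.103 by the exact permutation test. Protein-coding features held 6.24% ± 1.35 in HL60 rPAL and 2.07% ± 0.187 in HL60 total, against 2.64% ± 0.752 in KG1a rPAL and 2.05% ± 0.215 in KG1a total, a difference of 1.25 (exact permutation adjusted p = 0.122). The tRNA share was 67.0% ± 6.31 in HL60 rPAL and 20.2% ± 0.508 in HL60 total, against 57.0% ± 20.8 in KG1a rPAL and 9.99% ± 2.14 in KG1a total. Its difference of -0.73 had an exact permutation p of 0.196. Without KG1a rPAL replicates 2 and 3 no class passed. The adjusted p was 0.08 for rRNA, snoRNA, misc_RNA and tRNA (exact permutation). Their differences were -1.46, -1.20, -2.37 and, for tRNA, -1.20. Fewer libraries leave fewer arrangements, which raises the smallest p that the permutation allows. The calls lost in this way therefore do not tell a weaker difference from a coarser test. With tRNA left out of the totals no class passed either, at an exact permutation adjusted p of 0.0514 for rRNA and misc_RNA and 0.0716 for snoRNA, with differences of -1.64, -2.39 and -1.44.

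**Figure D2:**
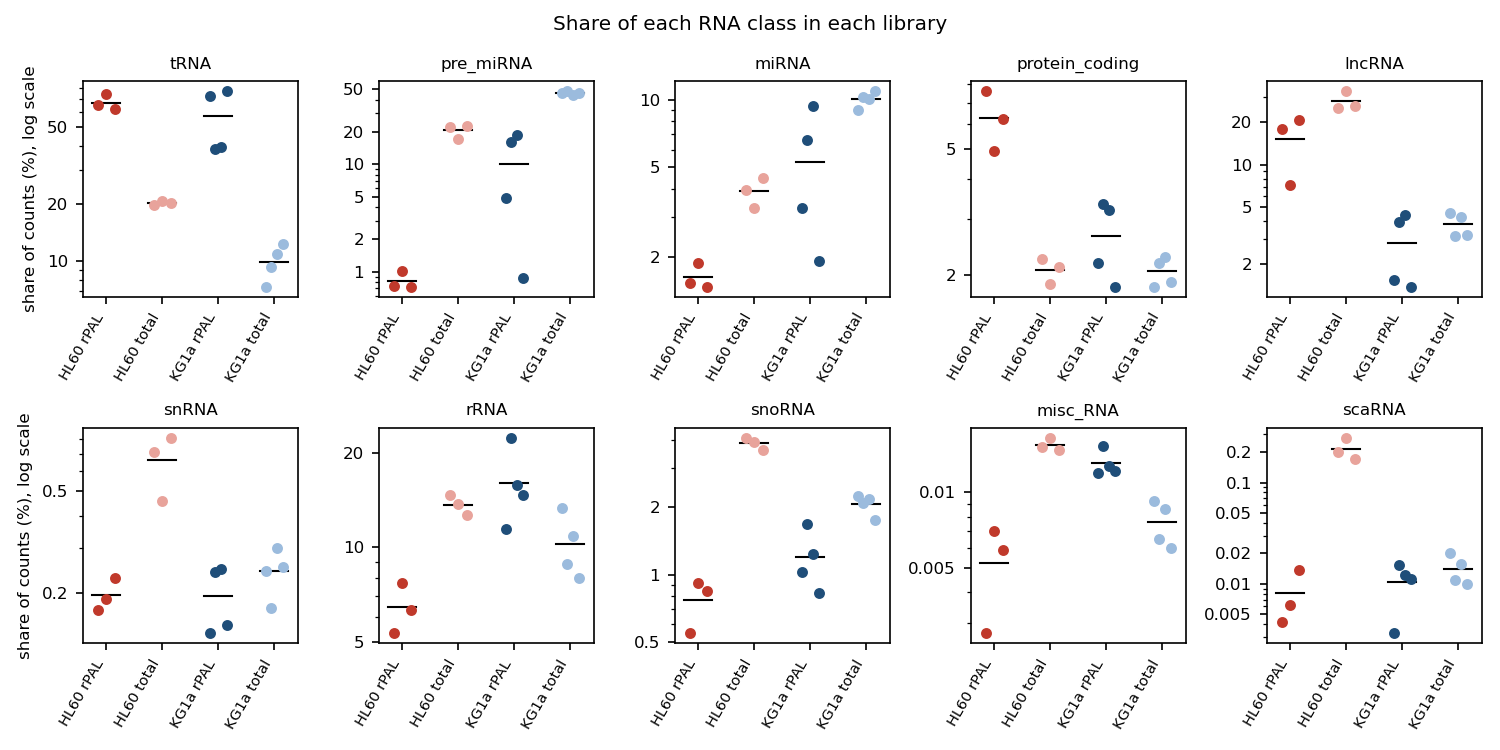
Share of counts in percent (y axes, log scale) of 10 RNA classes in each of the 14 libraries, with a point for each library and a line at the mean of the group. In rRNA, snoRNA and misc_RNA the HL60 rPAL points lie below the HL60 total points with no overlap, while in rRNA and misc_RNA the KG1a rPAL mean lies above the KG1a total mean.

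Of 13 spliceosomal RNA genes tested, 5 were enriched less in HL60 than in KG1a cells and 8 did not pass the test. Over all features 1.81% were called. RNU5B-1, a U5 gene, had 0.506, 5.70 and 0.786 CPM in HL60 rPAL and 1653, 714 and 729.9 CPM in HL60 total. It had 11.5, 102, 145 and 31.8 CPM in KG1a rPAL and 426, 166, 402 and 322 CPM in KG1a total. Neither line's rPAL libraries overlapped its total libraries, and all KG1a rPAL libraries lay above all HL60 rPAL libraries. The log2 enrichment was -9.23 ± 1.04 in HL60 and -2.66 ± 0.67 in KG1a (SE), a difference of -6.56 ± 1.07 (edgeR, adjusted p = 0.00463), and -5.58 without KG1a rPAL replicates 2 and 3. RNU5F-1 had 0.506, 2.18 and 1.73 CPM in HL60 rPAL and 126, 50.4 and 76.2 CPM in HL60 total, against 0.0761, 7.16, 5.38 and 1.80 CPM in KG1a rPAL and 6.16, 2.38, 4.62 and 2.01 CPM in KG1a total. Its HL60 groups stood apart and its KG1a groups overlapped, and the lines differed in total RNA (edgeR, adjusted p = 0.00266) while in rPAL RNA that test had an adjusted p of 0.277. The difference was -5.69 ± 1.18 (edgeR, adjusted p = 0.0217).

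A host gene of a U5 locus was also lower. The lncRNA AL021155.2, which holds RNU5E-1 (itself at 0 counts), had 10.8, 10.3 and 7.70 CPM in HL60 rPAL and 604, 317 and 651 CPM in HL60 total, against 3.41 to 136 CPM in KG1a rPAL and 99.6 to 135 CPM in KG1a total. Its difference was -4.76 ± 0.91 (edgeR, adjusted p = 0.0158), and the KG1a groups overlapped. The table does not tell reads of the small RNA from reads of its host gene. RNU5A-1 had no count in these libraries.

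Beyond U5, RNU2-36P, a pseudogene copy of the U2 RNA, had 7.40 ± 1.77 CPM in HL60 rPAL and 171 ± 92.4 CPM in HL60 total (SD, n = 3 each), against 23.6 ± 17.0 CPM in KG1a rPAL and 45.2 ± 25.8 CPM in KG1a total (SD, n = 4 each). Its difference was -3.65 ± 0.78 (edgeR, adjusted p = 0.0239). RNU4-2, the main U4 gene, fell in both pull-downs, with 18.5 ± 15.8 CPM in HL60 rPAL and 613 ± 306 CPM in HL60 total, against 55.5 ± 18.7 CPM in KG1a rPAL and 487 ± 235 CPM in KG1a total, and its difference of -2.02 ± 0.88 did not pass the test (edgeR, adjusted p = 0.245). RNU1-1 had at most 2.74 CPM in any library and a difference of -5.59 ± 1.77 (edgeR, adjusted p = 0.101). Of the 32 spliceosomal RNA genes with a symbol 13 were tested and 5 were called, all lower: RNU5B-1, RNU5F-1, RNU4-1 (-3.39 ± 0.82), RNU1-2 and RNU1-4. RNU1-2 and RNU1-4 had no count in HL60 rPAL, so their sizes are not bounded. The median over the 13 was -5.69, or -5.64 over the 8 with a count in every group. RNU1-1, RNU1-2, RNU1-3 and RNU1-4 had group means of at most 1.56 CPM. Without KG1a rPAL replicates 2 and 3 the list gave 5 called of 12 tested, where 659 of 13381 features were called. The share of the whole snRNA class was 0.195% in HL60 rPAL and 0.661% in HL60 total. It was 0.194% in KG1a rPAL and 0.242% in KG1a total, a difference of -1.38 (exact permutation adjusted p = 0.163).

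SCARNA6 had the deepest fall in HL60 among the named features. SCARNA6 had 0.169, 1.35 and 0.472 CPM in HL60 rPAL and 482, 627 and 463 CPM in HL60 total. It had 0.761, 3.30, 3.91 and 0.966 CPM in KG1a rPAL and 46.7, 21.0, 31.1 and 13.6 CPM in KG1a total. The rPAL libraries of the 2 lines overlapped, while the total libraries did not, and in total RNA the lines differed by 4.11 on the log2 scale (edgeR, adjusted p = 0.000154). The enrichment was -10.02 ± 0.90 in HL60 and -4.10 ± 0.60 in KG1a, a difference of -5.92 ± 0.91 (edgeR, adjusted p = 0.00396), and -5.27 without KG1a rPAL replicates 2 and 3. Of 25 genes with a SCARNA symbol 6 were tested and SCARNA6 was the 1 called, beside 1.81% called over all features. The whole scaRNA class had 11 features tested, of which 2 were lower and none higher. The other was ENSG00000281388.1, without a symbol, at -6.07, which was called in each of the 14 fits that left out 1 library.

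TMEM107, a gene of the ciliary transition zone, holds SNORD118, the U8 RNA needed for processing of large-subunit ribosomal RNA, whose own feature was at 0 counts. The counts do not tell reads of SNORD118 from reads of TMEM107. TMEM107 had 37.8, 59.6 and 43.2 CPM in HL60 rPAL and 2795, 2680.5 and 2983 CPM in HL60 total. It had 6.85, 17.0, 1.17 and 11.9 CPM in KG1a rPAL and 7.68, 10.1, 5.65 and 7.22 CPM in KG1a total. The HL60 groups were far apart and the KG1a groups overlapped, with enrichments of -6.36 ± 0.80 and 0.08 ± 0.56. The difference was -6.44 ± 0.92 (edgeR, adjusted p = 0.00184), and the lines differed in total RNA by 8.40 (edgeR, adjusted p = 3.4e-07) against 1.96 in rPAL RNA (edgeR, adjusted p = 0.0318).

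Some snoRNA genes and snoRNA host genes also had negative differences of enrichment. SNHG5, a snoRNA host gene whose interval holds SNORD50B (0 counts of its own), had 25.6, 29.3 and 10.7 CPM in HL60 rPAL and 311, 310.3 and 371 CPM in HL60 total. It had 145, 413, 494 and 48.7 CPM in KG1a rPAL and 129, 146, 152 and 109.8 CPM in KG1a total. The HL60 groups did not overlap and the KG1a groups did, and the difference was -4.93 ± 0.77 (edgeR, adjusted p = 0.00463), or -4.09 without KG1a rPAL replicates 2 and 3. SNORD38A, which guides ribosomal RNA methylation, had enrichments of -2.09 ± 0.71 in HL60 and 1.99 ± 0.61 in KG1a, each past the test with adjusted p = 0.0397 and 0.0239, and a difference of -4.08 ± 0.93 (edgeR, adjusted p = 0.0317). Its levels were 39.6 ± 34.7 CPM in HL60 rPAL and 121 ± 26.0 CPM in HL60 total (SD, n = 3 each). They were 56.1 ± 18.8 CPM in KG1a rPAL and 13.0 ± 2.23 CPM in KG1a total (SD, n = 4 each). The rPAL and total libraries stood apart in both lines. Between the lines the rPAL libraries of SNORD38A overlapped (-0.98, edgeR adjusted p = 0.336). In total RNA the lines differed by 3.11 (edgeR, adjusted p = 0.00658). Of 276 C/D genes 19 were tested and 2 called (SNORD38A and SNORD14E at -3.60), and of 143 H/ACA genes 28 were tested and 1 called (SNORA73B at -3.18), all lower, with medians of -2.16 and -2.54. Of 21 tested snoRNA host genes SNHG5 and SNHG8 (-3.43) were lower, with a median of -1.24. These list counts stand beside 1.81% called over all features. Without KG1a rPAL replicates 2 and 3, 659 of 13381 features were called. The calls in that fit were 4 of 19 C/D genes, 3 of 31 H/ACA genes and 5 of 22 host genes.

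Of the mitochondrial tRNAs, 5 were also enriched less in HL60. MT-TH had 12.8, 44.7 and 31.0 CPM in HL60 rPAL and 94.7, 86.6 and 20.2 CPM in HL60 total. It had 118, 338, 145 and 85.9 CPM in KG1a rPAL and 19.1, 7.48, 16.3 and 8.48 CPM in KG1a total. MT-TH therefore overlapped between rPAL and total RNA in HL60 and was higher in every rPAL library in KG1a, with enrichments of -1.67 ± 0.65 and 3.35 ± 0.60 and a difference of -5.02 ± 0.88 (edgeR, adjusted p = 0.00815). MT-TN had 2.19, 5.49 and 4.56 CPM in HL60 rPAL and 504, 428 and 196 CPM in HL60 total. It had 17.9, 103, 46.9 and 41.7 CPM in KG1a rPAL and 332, 235, 348 and 74.6 CPM in KG1a total. Its KG1a groups overlapped through the lowest total library, at 74.6 CPM. It fell in both pull-downs, with enrichments of -6.98 ± 0.79 in HL60 and -2.56 ± 0.56 in KG1a, a difference of -4.42 ± 0.85 (edgeR, adjusted p = 0.0164). All 22 mitochondrial tRNA genes were tested, and MT-TH, MT-TN, MT-TA (-4.22), MT-TP (-3.69) and MT-TM (-3.39) were lower. Of the 22, 19 lay below 0, with a median of -1.93, beside a median of -0.36 and 1.81% called over all features. Without KG1a rPAL replicates 2 and 3, where 659 of 13381 features were called, 8 were called. MT-TV, the most abundant of them in rPAL RNA, was enriched in both lines (5.11 in HL60, 4.84 in KG1a). Its difference was 0.27 (edgeR, adjusted p = 0.902). The mitochondrial tRNA share was 0.387% in HL60 rPAL and 0.0901% in HL60 total. It was 0.508% in KG1a rPAL and 0.0673% in KG1a total, a difference of -0.77 (exact permutation adjusted p = 0.476). None of the 13 mitochondrial mRNAs passed the test in edgeR or DESeq2, with 4 at an unadjusted p under 0.05 in edgeR and a median of -1.05.

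RNY1 was the 1 Y RNA gene of 3 tested that passed the test, beside 1.81% called over all features. RNY1 had 6.58, 25.4 and 14.3 CPM in HL60 rPAL and 50.2, 58.2 and 41.3 CPM in HL60 total, against 96.4, 103, 92.3 and 80.8 CPM in KG1a rPAL and 66.1, 42.5, 57.1 and 35.5 CPM in KG1a total. Neither line's groups overlapped, with HL60 rPAL below its total and KG1a rPAL above its total, and the total libraries of the lines overlapped. The difference was -2.82 ± 0.72 (edgeR, adjusted p = 0.046), and it passed the test in 4 of 14 fits that left out 1 library. RNY3 had 16.8 ± 9.23 CPM in HL60 rPAL and 11.5 ± 1.00 CPM in HL60 total (SD, n = 3 each), against 7.02 ± 8.04 CPM in KG1a rPAL and 1.59 ± 0.330 CPM in KG1a total (SD, n = 4 each), and its difference of -1.63 ± 1.29 did not pass (edgeR, adjusted p = 0.582). RNY4 had at most 3.76 CPM and a difference of -4.91 ± 1.83 (edgeR, adjusted p = 0.164). RN7SL1, a gene of the signal recognition particle (SRP) RNA, had a difference of -3.88 ± 1.37 (edgeR, adjusted p = 0.139) at no more than 5.86 CPM. A separate SRP RNA class, with 7 tested entries, held 0.0563% of counts in HL60 rPAL and 0.0125% in HL60 total. It held 0.0949% in KG1a rPAL and 0.0160% in KG1a total, a share difference of -0.41 (exact permutation adjusted p = 0.657).

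**Figure D3:**
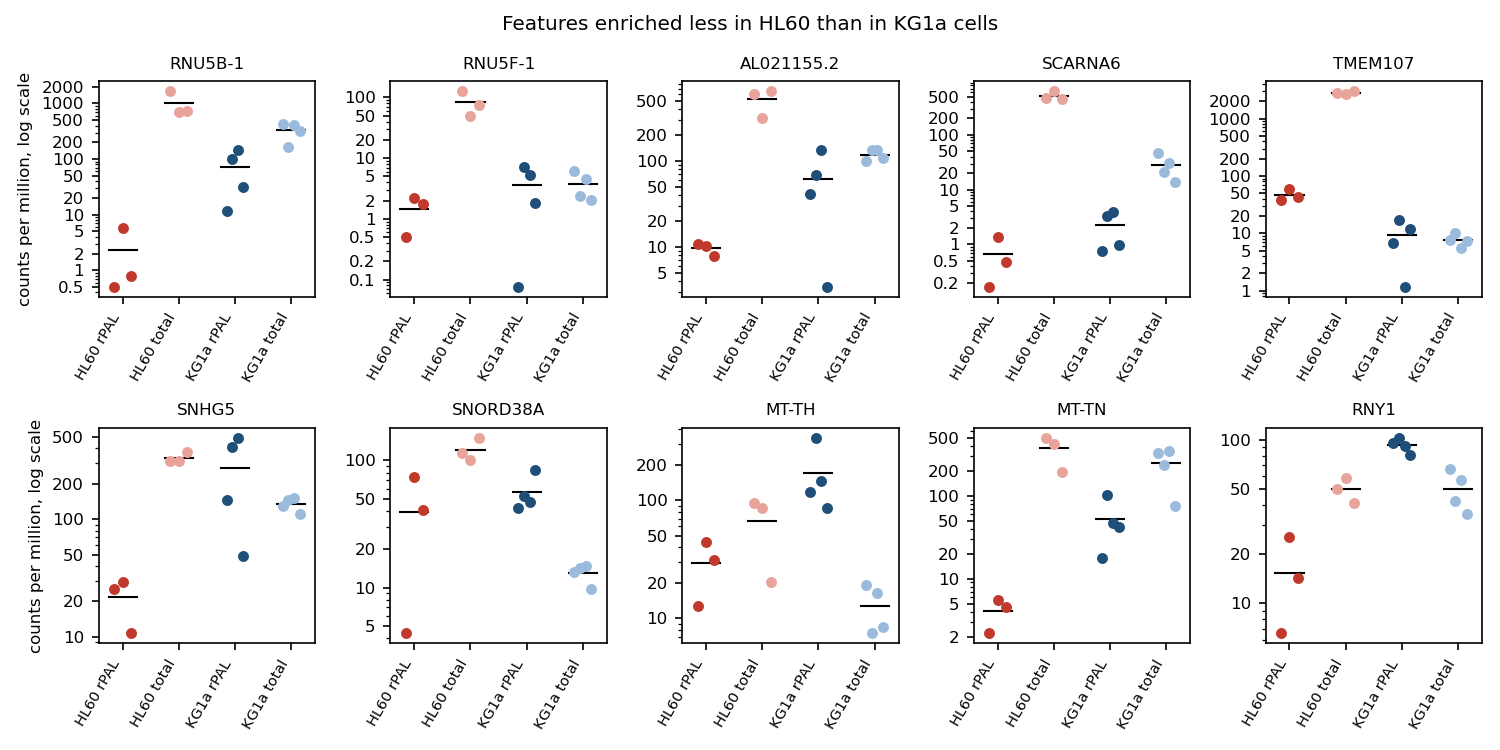
CPM (y axes, log scale) of 10 features that were enriched less in HL60 than in KG1a cells, in each of the 14 libraries, with a line at the group mean. HL60 rPAL points lie below HL60 total points in every panel except MT-TH, where they overlap, while TMEM107 at KG1a total (mean 7.67 CPM) lies far below HL60 total (mean 2819 CPM).

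The lncRNA AL049796.1, on chromosome 1 (93847174 to 93848939, plus strand), was lower too, with 26.2 ± 19.6 CPM in HL60 rPAL and 428 ± 166 CPM in HL60 total (SD, n = 3 each), against 46.3 ± 26.8 CPM in KG1a rPAL and 44.5 ± 9.82 CPM in KG1a total (SD, n = 4 each). Its difference was -4.38 ± 0.95 (edgeR, adjusted p = 0.0248), and the lines differed by 3.18 in total RNA (edgeR, adjusted p = 0.00561) and by -1.20 in rPAL RNA (adjusted p = 0.234). Its transcript is shown between bases 395 and 481 because it holds, in capitals, the letters of the B box of tRNA genes (GGTTCGA, any base, then TCC).
AL049796.1: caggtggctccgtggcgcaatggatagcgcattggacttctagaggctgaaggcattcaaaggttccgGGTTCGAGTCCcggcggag
Of 47938 genes with a transcript over 300 bases, 58 held these letters on the transcript strand, or 0.121%.

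Among entries without a gene name, the most negative differences belonged to a miRNA precursor, URS00023110DF (-6.94 ± 0.78, edgeR adjusted p = 0.000124), and to a miRNA, URS000038B599 (-6.83 ± 0.82, edgeR adjusted p = 0.000189). URS00023110DF had 22.3, 14.9 and 11.6 CPM in HL60 rPAL and 1583, 1403 and 1821 CPM in HL60 total. It had 0.152 to 0.782 CPM in KG1a rPAL and 0.252 to 0.471 CPM in KG1a total. URS000038B599 averaged 14.6 CPM in HL60 rPAL and 1591 CPM in HL60 total, against 0.303 CPM in KG1a rPAL and 0.325 CPM in KG1a total, close to the precursor in each group. Both were nearly confined to HL60 RNA, so that KG1a, with 18 and 16 counts of the precursor in rPAL and total libraries, gave little signal to set against it. The miRNA MIR7977 was high in both pull-downs, with 1284, 2805 and 2235 CPM in HL60 rPAL and 27.5 to 42.5 CPM in HL60 total. It had 2966, 4772, 3804 and 9798 CPM in KG1a rPAL and 62.5 to 95.5 CPM in KG1a total. Its enrichments were 5.38 ± 0.67 in HL60 and 5.98 ± 0.59 in KG1a, each past the test, and their difference was -0.60 ± 0.73 (edgeR, adjusted p = 0.768). Its mature sequence (RefSeq, GRCh38.p14, chromosome 3, 176515103 to 176515120, plus strand) is shown with the seed, bases 2 to 8, in capitals.
hsa-miR-7977: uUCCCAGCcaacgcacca
Of 1922 miRNA genes with a symbol 65 were tested and MIR1237 was the 1 called, with no count in HL60 rPAL, a share close to the 1.81% called over all features. The miRNA gene list gave 2 of 75 without KG1a rPAL replicates 2 and 3, where 659 of 13381 features were called.

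The features enriched more in HL60 were led by loci with few reads in total RNA. ZDHHC3, a palmitoyltransferase gene on chromosome 3, had 12629, 2741 and 7288 CPM in HL60 rPAL and 2.85, 2.55 and 5.45 CPM in HL60 total. It had 252, 621, 1958 and 218 CPM in KG1a rPAL and 7.10, 8.71, 11.8 and 24.5 CPM in KG1a total. No groups overlapped, and the pull-down stood above the total in both lines, by 10.65 ± 1.03 in HL60 and 5.36 ± 0.71 in KG1a. The difference was 5.29 ± 0.97 (edgeR, adjusted p = 0.0115), and 6.30 without KG1a rPAL replicates 2 and 3. LINC01780, a lncRNA on chromosome 1, had 25212.5, 5268 and 14509 CPM in HL60 rPAL and 5.64, 1.88 and 10.6 CPM in HL60 total, against 479, 1184, 3783 and 416 CPM in KG1a rPAL and 10.5, 10.0, 14.7 and 26.4 CPM in KG1a total. Its difference was 4.88 ± 1.00 (edgeR, adjusted p = 0.0211), and its KG1a rPAL libraries all lay below the lowest HL60 rPAL library. Over the 7 rPAL libraries the log2 ratio of ZDHHC3 to LINC01780 had an SD of 0.0292, the smallest among the pairs of higher named loci compared. These loci kept 1 proportion in rPAL RNA but not in HL60 total. There LINC01780 lay above ZDHHC3 in replicates 1 and 3 and below it in replicate 2. Whether they share reads was not tested beyond this ratio.

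HP, the haptoglobin gene on chromosome 16, had 36999.5, 12141 and 26928 CPM in HL60 rPAL and 21.3, 8.12 and 31.3 CPM in HL60 total. It had 499.8, 1453, 3086 and 611 CPM in KG1a rPAL and 27.0, 16.1, 21.6 and 28.5 CPM in KG1a total. In total RNA the lines overlapped, and in rPAL RNA every HL60 library lay above every KG1a library, with a difference of enrichment of 4.48 ± 0.83 (edgeR, adjusted p = 0.0115). The hepatocyte markers ALB, APOA1 and SERPINA1 summed to at most 1.10 CPM in these libraries. LINC01766, on chromosome 19, was named after its values were seen. It had 137673, 44517 and 173315 CPM in HL60 rPAL and 123, 89.0 and 233 CPM in HL60 total, against 3141, 11294, 14877 and 3472 CPM in KG1a rPAL and 123 to 203 CPM in KG1a total. Its difference was 4.10 ± 0.80 (edgeR, adjusted p = 0.0166). LINC01766, HP, LINC01780 and ZDHHC3 together held 21.3%, 6.47% and 22.2% of the HL60 rPAL libraries, against 0.437% to 2.37% of the KG1a rPAL libraries and at most 0.0282% of any total library. Their levels are shares of the library, so a share of this size lowers the CPM of all other features in HL60 rPAL.

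Other loci showed the same order with lower levels. TMUB2, a gene of a ubiquitin-like membrane protein, had 1552, 254 and 716 CPM in HL60 rPAL and 0.269 to 0.428 CPM in HL60 total, against 11.2 to 73.3 CPM in KG1a rPAL and 0.217 to 0.672 CPM in KG1a total. Its difference was 5.06 ± 1.01 (edgeR, adjusted p = 0.0185). ADAMTS15, a secreted metalloprotease gene, gave 5.0 ± 1.05 (edgeR, adjusted p = 0.0224), with 328 ± 246 CPM in HL60 rPAL and 0.303 ± 0.178 CPM in HL60 total (SD, n = 3 each), against 12.6 ± 12.4 CPM in KG1a rPAL and 0.352 ± 0.137 CPM in KG1a total (SD, n = 4 each). The log2 ratio of TMUB2 to ADAMTS15 had an SD of 0.172 over the 7 rPAL libraries, the next smallest among the pairs compared. ANKRD11, a chromatin-associated protein gene, gave 4.71 ± 0.78 (edgeR, adjusted p = 0.00463) with 191, 87.5 and 271 CPM in HL60 rPAL and 1.07 to 2.45 CPM in HL60 total, against 10.9 to 20.6 CPM in KG1a rPAL and 2.71 to 4.53 CPM in KG1a total. RILPL1 gave 4.48 ± 1.12 (edgeR, adjusted p = 0.0448). H2AFY, the macroH2A gene, gave 4.34 ± 1.04 (edgeR, adjusted p = 0.04), and its HL60 rPAL libraries, at 29.8 to 486 CPM, overlapped its KG1a rPAL libraries, at 14.9 to 97.7 CPM.

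GADD45GIP1 and PCM1 were enriched in HL60 cells, and in KG1a cells their pull-down overlapped total RNA. GADD45GIP1, a mitochondrial ribosome subunit gene, had 31.5, 131 and 84.3 CPM in HL60 rPAL and 0.856, 1.01 and 1.05 CPM in HL60 total. It had 3.96, 1.01, 2.54 and 0.515 CPM in KG1a rPAL and 2.10, 1.48, 2.73 and 0.756 CPM in KG1a total. The KG1a groups overlapped, with an enrichment of -0.07 ± 0.62 against 5.91 ± 0.86 in HL60, and the difference of 5.98 ± 1.02 (edgeR, adjusted p = 0.007) was the highest among the named genes with more than 3 counts in each group. PCM1, a centriolar satellite gene, had 49.6, 102 and 52.2 CPM in HL60 rPAL and 1.48 to 2.52 CPM in HL60 total, against 4.18 to 5.57 CPM in KG1a rPAL and 2.43 to 4.52 CPM in KG1a total. Its difference was 4.32 ± 0.77 (edgeR, adjusted p = 0.00815). Its enrichment was 4.6 ± 0.64 in HL60 and 0.28 ± 0.48 in KG1a.

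CDK6, a cell-cycle kinase gene, reached its positive difference through total RNA. CDK6 had 2.70, 0.104 and 7.70 CPM in HL60 rPAL and 1.85, 1.34 and 2.03 CPM in HL60 total. It had 5.32, 22.2, 13.9 and 14 CPM in KG1a rPAL and 119, 157, 131 and 168 CPM in KG1a total. The HL60 groups overlapped, and KG1a rPAL lay below KG1a total, with enrichments of 0.63 ± 0.80 and -3.66 ± 0.73. The difference of 4.30 ± 1.08 had an edgeR adjusted p of 0.0448, and 0.0513 without KG1a rPAL replicates 2 and 3. CDK6 holds RNU6-10P, a U6 copy with 6 counts of its own. An unnamed tRNA entry, URS00006F50E3, had 15.1 to 31.7 CPM in HL60 rPAL and 0.336 to 1.33 CPM in HL60 total, against 47.8 to 137 CPM in KG1a rPAL and 51.7 to 117 CPM in KG1a total. Its KG1a groups overlapped, and its difference was 4.56 ± 0.85 (edgeR, adjusted p = 0.0119). An unnamed lncRNA, ENSG00000293512.2, gave 5.06 ± 1.06 (edgeR, adjusted p = 0.0224).

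SLC1A1, a glutamate transporter gene, and MIER2 lacked counts in HL60 total. SLC1A1 had 67.6, 7.67 and 222 CPM in HL60 rPAL and was listed at 0 in all HL60 total libraries, against 1.03 to 9.19 CPM in KG1a rPAL and 0.0942 to 0.290 CPM in KG1a total. MIER2 had 103, 60.4 and 97.0 CPM in HL60 rPAL and 2 counts over the HL60 total libraries, against 2.21 to 16.9 CPM in KG1a rPAL and 0.164 to 0.504 CPM in KG1a total. Both passed the test in edgeR (adjusted p = 0.0245 and 0.0111), but the sizes fitted for such features are not bounded.

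**Figure D4:**
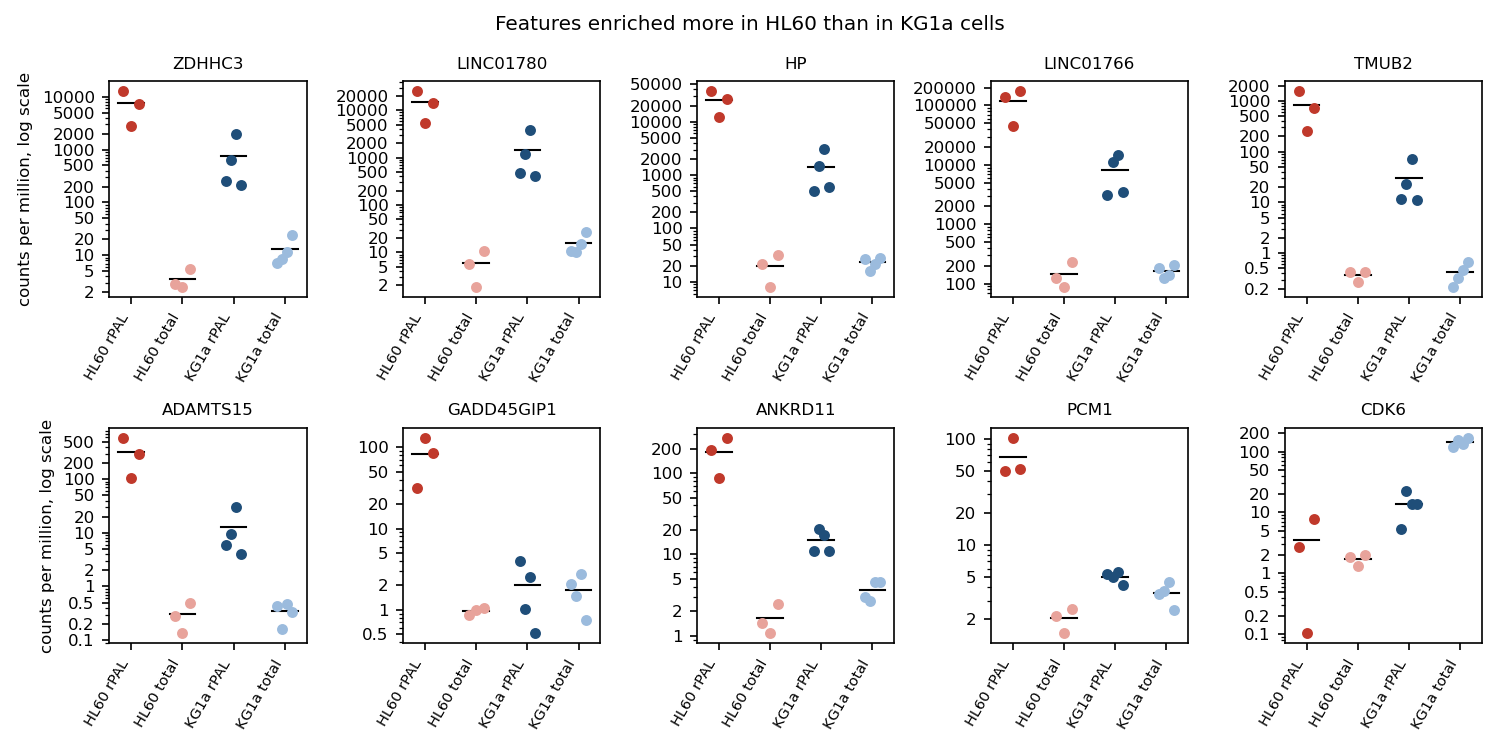
CPM (y axes, log scale) of 10 features enriched more in HL60 than in KG1a cells, in each of the 14 libraries, with a line at the group mean. For LINC01766 the HL60 rPAL libraries lie between 44517 and 173315 CPM, above all KG1a rPAL libraries, and for CDK6 the KG1a total libraries stand highest, between 119 and 168 CPM.

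In the remaining lists few or no members passed the test, and these counts stand against 1.81% called over all features. Of 78 tested ribosomal protein mRNAs RPL4 was lower (-2.96 ± 0.64, edgeR adjusted p = 0.0245) and the median was -1.08. Of 57 tested replication-dependent histone mRNAs HIST1H2BB was lower (-4.02 ± 1.04, edgeR adjusted p = 0.0487), and HIST1H3J, which had 6.33 CPM in HL60 rPAL and 4.44 CPM in HL60 total, against 0 CPM in KG1a rPAL and 1.01 CPM in KG1a total, was higher (edgeR, adjusted p = 0.0317). Their median was 0.34. The counts for ribosomal protein and histone mRNAs, 1 of 78 and 2 of 57, lie near that share. Without KG1a rPAL replicates 2 and 3, where 659 features were called in all, they were 4 of 78 and 5 of 58. Of 12 tested mRNAs of sialic acid and N-glycan enzymes none was called in edgeR or DESeq2, with 1 at an unadjusted p under 0.05 in edgeR, and 1 was called without KG1a rPAL replicates 2 and 3. All 12 differences lay below 0, with a median of -1.18 and standard errors of 1.03 to 2.07, and the highest group mean among them was 5.91 CPM. No member was called in edgeR or DESeq2 among 3 nuclear lncRNA genes, 2 neutrophil granule mRNAs, 4 primitive cell mRNAs and 2 genes of the 7SL, 7SK, RNase P, RNase MRP and vault RNA list, with 0, 0, 1 and 1 at an unadjusted p under 0.05 in edgeR. Of the 2 mitochondrial ribosomal RNAs, none was called in edgeR and 1 in DESeq2, with 1 at an unadjusted p under 0.05 in edgeR. The nuclear lncRNA NEAT1 had a difference of 0.40 ± 0.78 (edgeR, adjusted p = 0.883), and MALAT1 had at most 1.51 CPM. Of the line markers, CD34 differed by 0.42 ± 1.31 (edgeR, adjusted p = 0.941) and MPO by -2.45 ± 1.55 (edgeR, adjusted p = 0.461). A single lncRNA entry without a symbol held 0.624% of counts in HL60 rPAL and 27.3% in HL60 total, against 0.637% in KG1a rPAL and 2.77% in KG1a total. Its difference was -3.28 ± 0.92 (edgeR, adjusted p = 0.0685), and its part in the shares of other features was not tested.

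**Figure D5:**
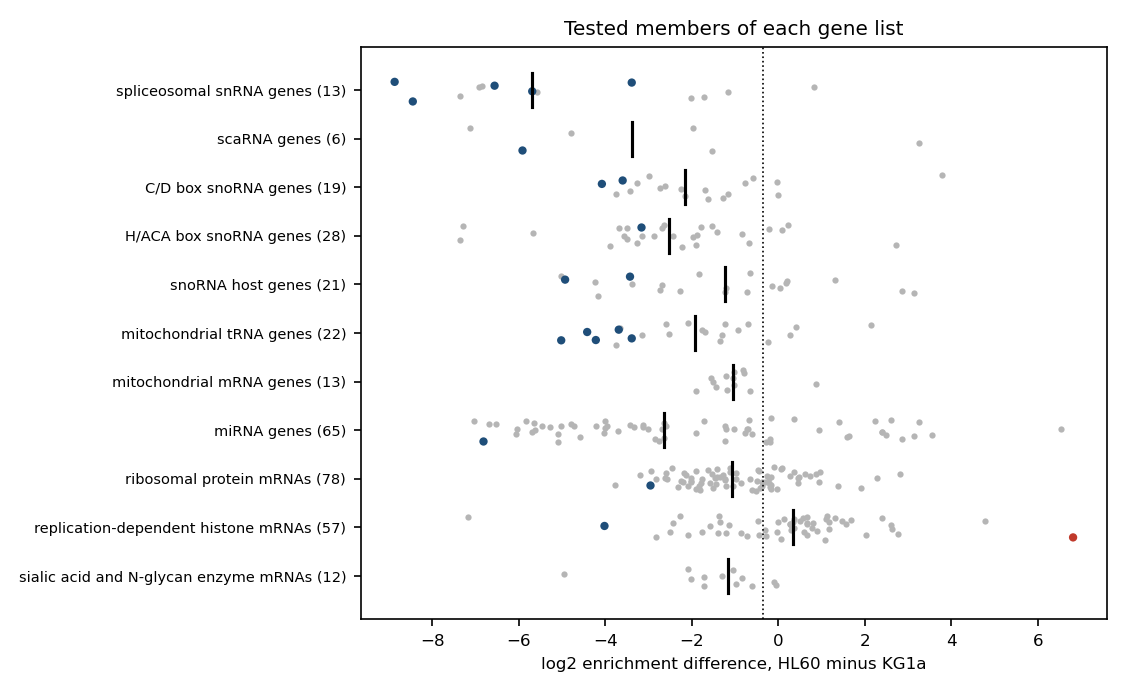
Log2 enrichment difference, HL60 minus KG1a (x axis), of each tested member of 11 gene lists, with the number tested in brackets, the list median as a black bar and the median of all 11632 features (-0.36) as a dotted line. Members called lower are blue and higher are red. The spliceosomal RNA genes have the lowest median, at -5.69, and several of them averaged near 0 CPM in HL60 rPAL.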

How the data were processed

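Small RNA libraries of total RNA and of rPAL-enriched RNA from HL60 and KG1a cells were made with the MGIEasy kit after RNAzol and column extraction, per the labels' protocols. The authors deposited 1 table of raw read counts per feature for 38 libraries in 12 groups, of which 14 libraries in 4 groups were used. Bowtie2 and GRCh38 (hg38) are named per the submitters' processing notes. Tool versions, how features were counted, with which annotation and what was done with reads of several map positions are not given in the sources used here. Reads that fit several copies, or a small RNA inside another gene, may therefore be split or counted under either. Of the 90127 features 86401 have Ensembl and 3726 RNAcentral identifiers, and GENCODE 29 gave a symbol to 57355.

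The counts were fitted with edgeR 4.0.16 (R 4.3.3; TMM scaling, filterByExpr by group, robust quasi-likelihood test with 10 residual degrees of freedom). The contrast was (HL60 rPAL minus HL60 total) minus (KG1a rPAL minus KG1a total), with Benjamini-Hochberg adjustment over 11632 features and a threshold of 0.05. Standard errors are the log2 value divided by the square root of F. Class shares were compared by exact permutation of the line labels, over 1225 arrangements, for 28 classes with counts in every library. Features whose log2 counts lay within 0.2 of each other in every library were taken to share reads, which held for 136 features in 43 groups. DESeq2 1.42.0, other scalings, filters and sets of libraries were alternatives.

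Named genes were the 12 highest and 12 lowest differences among called features with a symbol, a group mean of at least 50 CPM and more than 3 counts in each group. To these came the 2 highest and 2 lowest without a symbol, features lacking counts in a group and a panel. Some features chosen this way are not reported here. The members, lists and panel were chosen with earlier results of these data known. The miRNA list was narrowed and copies ending in P were left out of the spliceosomal list after the counts had been read. Same-numbered rPAL and total libraries of a line did not deviate together, with correlations between -0.0858 and 0.0331, so they were not treated as pairs. RNY5 was not analysed here. The gene features RN7SK, RPPH1, RMRP and VTRNA1-1 had no count, and SNORD3A, with 32 counts, was not tested. A separate RNase P RNA entry held 0.527% of counts in HL60 rPAL and 0.00786% in HL60 total. It held 0.325% in KG1a rPAL and 0.00451% in KG1a total, a share difference of -0.32 (exact permutation adjusted p = 0.864).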

Additional observations from a re-analysis of the deposited data

Results flagged for a closer look

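The enrichment differed between the lines by the test of the difference itself for 30 named features and 3 class shares. The positive log2 differences were 8.75 for SLC1A1, 6.24 for MIER2, 5.98 for GADD45GIP1, 5.29 for ZDHHC3, 5.06 for TMUB2 and for ENSG00000293512.2, 5.0 for ADAMTS15 and 4.88 for LINC01780. They were 4.71 for ANKRD11, 4.56 for URS00006F50E3, 4.48 for HP and for RILPL1, 4.34 for H2AFY, 4.32 for PCM1, 4.30 for CDK6 and 4.10 for LINC01766. The values of SLC1A1 and MIER2 are fitted against 0 and 2 counts in HL60 total and are no bound. The negative ones were -6.94 for URS00023110DF, -6.83 for URS000038B599, -6.56 for RNU5B-1, -6.44 for TMEM107, -5.92 for SCARNA6, -5.69 for RNU5F-1 and -5.02 for MT-TH. They were -4.93 for SNHG5, -4.76 for AL021155.2, -4.42 for MT-TN, -4.38 for AL049796.1, -4.08 for SNORD38A, -3.65 for RNU2-36P and -2.82 for RNY1. The shares of misc_RNA, rRNA and snoRNA differed by -2.48, -1.73 and -1.53.

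In 4 of 108 groups of 4 libraries 1 library lay far from the others, and chance marks about 1 in 20. These were H2AFY at 3.78 CPM and MPO at 0.0725 CPM in a KG1a total library, and in a KG1a rPAL library the mitochondrial tRNA share at 0.875% and the processed pseudogene share at 0.217%.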

How the results depend on the processing

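The count of 211 called features depended strongly on the libraries and the fit. It was 705 with DESeq2, 122 with no TMM scaling and 659 without KG1a rPAL replicates 2 and 3. With all 12 groups fitted together, which changed spread, filter and scaling, it was 0 of 18423 features tested. Fits that left out 1 library called 14 to 595. Leaving out any HL60 library, any KG1a total library, or KG1a rPAL replicate 1 or 4 moved the count by over 1.5 times. The replicate block gave 60, although the numbers do not pair the libraries. The share of calls that were higher in HL60 was 35.1%, 48.4% with at least 10 counts in 6 libraries, and 14.3% to 58.3% with 1 library left out, the lowest without HL60 total replicate 1 and the highest without HL60 rPAL replicate 2. It was 52.9% and 52.8% without HL60 rPAL replicates 1 and 3, and 51.1% without KG1a total replicate 2. Enrichment calls in HL60 were 1543 with no filter, 1162 over 12 groups, 3728 without KG1a rPAL replicates 2 and 3 and 1423 to 2821 with 1 library left out. In KG1a they were 1297, 4820 and 1599 to 3079 for the 12 groups, the pair of libraries and the single ones. The class calls, 3 in all, were 0 with tRNA left out of the totals, 0 without KG1a rPAL replicates 2 and 3, and 0 to 4 with 1 library left out. Without any 1 of the HL60 total libraries the adjusted p was 0.0533 for rRNA, snoRNA and misc_RNA (exact permutation). Leaving out libraries also leaves fewer arrangements and a larger smallest p, so a class call lost in this way does not show a weaker difference.

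All 30 features flagged above kept their direction in the 14 fits with 1 library left out and the 9 other alternatives. Of these 7 were called in every fit with 1 library left out, and none in the fit of all 12 groups. The block and the lack of TMM each ended 6 calls. Uncalled values changed sign for MIR7977 (-0.79 to 0.31 with 1 library left out, the positive value without KG1a rPAL replicate 4), for CD34 (-1.01 to 1.25, with -0.04 and -1.01 without HL60 total replicate 2 and HL60 rPAL replicate 1) and for MPO (0.39 without KG1a rPAL replicates 2 and 3). In percentage points the miRNA and pre_miRNA shares differed by 2.48 and 16.18. Without KG1a rPAL replicates 2 and 3 the lncRNA share gave 0.36 and the miRNA share 0.73. With 1 library left out the lncRNA share ran between -0.70 and 0.07 and the miRNA share between -0.50 and 0.27. The cause was not tested. HL60 rPAL libraries hold the fewest counts, and features with few counts in a group have no bounded difference.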
